A study of Homo sapiens with 6 samples.

Results

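The FGF and PDGF ligands and receptors were followed across 6 microarrays of H358 cells. H358 is an established cell line from a human bronchioalveolar carcinoma. The set held 10 genes chosen by name: the FGF ligands FGF1 and FGF2, the FGF binding protein FGFBP1, the FGF receptors FGFR1, FGFR2, FGFR3 and FGFR4, the PDGF ligands PDGFA and PDGFB, and the PDGF receptor PDGFRB. They were 10 of the 19090 genes with a named probe and were read by 16 of 28264 probes. A line labelled YAP(5SA) was set against a line carrying GFP, labelled as the control. YAP is the coactivator that the Hippo kinases inhibit by phosphorylation, and 5SA names a mutant whose phosphorylated serines were replaced by alanine. Each line was harvested after 60 min with IL-1b, TNFa or vehicle, in medium with fetal bovine serum, and each of the 6 conditions had 1 array. The dose is unknown, because the treatment notes give 10 g/ml for both cytokines, an implausible unit. The series title asks which genes respond to YAP when these cytokines are present.

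FGF ligands bind receptor tyrosine kinases on the cell surface together with heparan sulfate chains, and the receptors signal through the adaptor FRS2 to the RAS-ERK and PI3K pathways. FGF1 and FGF2 lack a classical signal peptide, and FGFBP1 is a secreted carrier that releases bound FGFs from the matrix. PDGF chains pair into dimers that bind PDGF receptors, which in tissue are found mainly on fibroblasts, pericytes and smooth muscle cells. In the developing lung, epithelial FGFR2 receives FGF signals from the mesenchyme. YAP acts on DNA through the TEAD transcription factors.

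Values are deposited background-subtracted intensities, and fold changes are on the scale log2(intensity + 16), which understates the change of dim probes. No condition was repeated. Each treatment gave 1 pair of arrays for the line difference, 3 in all, and each line gave 1 pair for a cytokine response, 2 in all. A p-value here sets a difference against its spread between pairs, pooled with a prior over all genes. The prior had 34.3 degrees of freedom against 2 for a gene's own pairs, so the spread and the SE come mostly from the prior. Nothing says that the arrays came from separate cultures. With 1 line of each kind, anything else that differed between the lines is part of the line difference. YAP1 itself read 5052, 4309 and 3244 in the line labelled YAP(5SA) under IL-1b, TNFa and vehicle, against 7534, 5618 and 7663 in the GFP line. Its log2 difference was -0.73 ± 0.21 (limma adjusted p = 0.012), a call lost when the vehicle pair (-0.48) or the IL-1b pair (-0.81) was left out. The call was also lost with dim probes kept in (limma adjusted p = 0.062) and without the treatment term (limma adjusted p = 0.061). Where on YAP1 this probe sits is unknown, so it checks nothing about a transgene. Of 8 epithelial markers 5 lay above the filter on dim probes, which left out the dimmest 40% of named probes, with KRT7 and KRT18 among the brightest probes on the arrays. KRT19, CLDN4 and CLDN7 were below the filter. Of 9 fibroblast and pericyte markers 3 lay above it, and of 8 endothelial and leukocyte markers 4 did. These last were the endothelial VWF and CDH5 and the monocyte and macrophage markers CD14 and CD68, while PECAM1, KDR, PTPRC and CD3E were below it. CD14 read 982 to 1167 in the line labelled YAP(5SA) and 2739 to 3613 in the GFP line.

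FGF1, FGF2 and PDGFRB were higher in the line labelled YAP(5SA), and FGFBP1 and FGFR2 were lower. The log2 differences were 2.49 ± 0.21 for FGF1, 1.31 ± 0.21 for FGF2 and 1.10 ± 0.20 for PDGFRB (limma SE, 3 pairs). They were -1.25 ± 0.21 for FGFBP1 and -0.72 ± 0.21 for FGFR2. Of the 9 genes that passed the filter, 3 rose and 2 fell at an adjusted p under 0.05 (limma, Benjamini-Hochberg over 12350 genes). Over all genes tested, 7.9% were called higher and 8.91% lower, 16.8% in either direction. The median difference was 0.42 over the 9 genes, against -0.01 over all genes. That median was not alike in the pairs. It was 0.59, 0.46 and -0.07 under IL-1b, TNFa and vehicle, against -0.07, 0.17 and -0.10 over all genes. FGFR4 did not pass the filter, and FGF1 and PDGFRB passed it only through the line in which they were higher. In RNA from whole cultures, fewer cells making a transcript and less of it per cell cannot be told apart. These counts describe genes chosen by name, with earlier results of these arrays known.

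**Figure D1:**
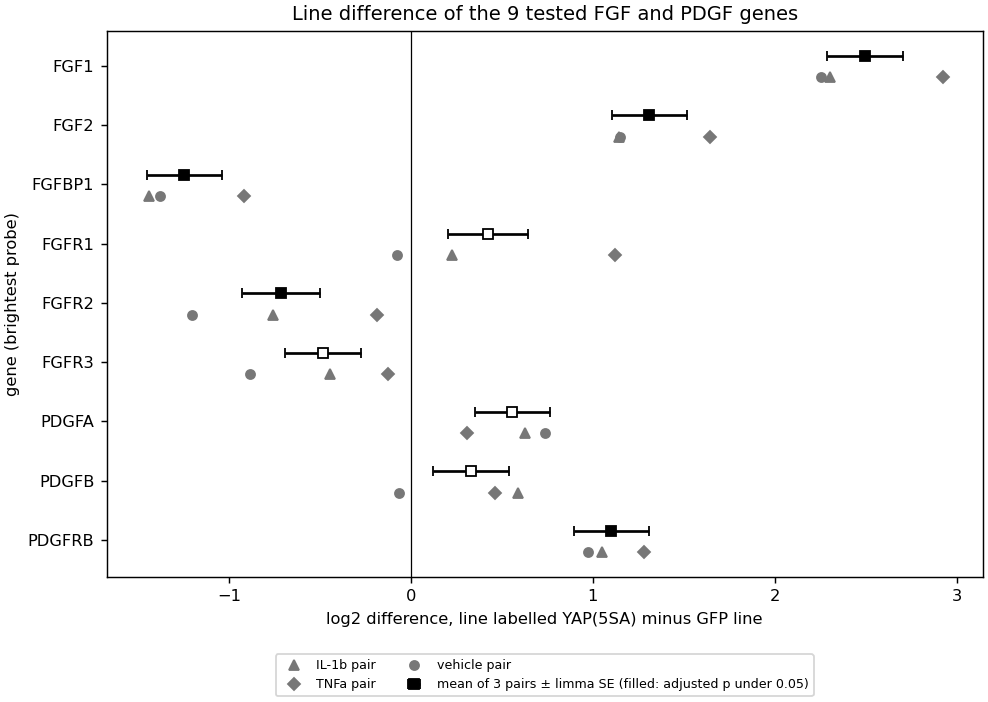
Line difference of the 9 tested genes, each read by its brightest probe, on the horizontal axis as the log2 difference, line labelled YAP(5SA) minus GFP line. Squares with bars are means of 3 pairs with the limma SE, filled where the adjusted p was under 0.05, and grey marks are the pairs under IL-1b, TNFa and vehicle. FGF1, FGF2 and PDGFRB lie to the right in every pair and FGFBP1 and FGFR2 to the left in every pair.

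The regions just before the annotated starts of the 5 genes that changed are shown because these genes moved with a label that concerns a TEAD coactivator. The sequences are RefSeq's for GRCh38.p14, each the 250 bases before a start, written 5′ to 3′ on the gene's strand, and 8 of the 10 genes were used in the search. Capitals mark the TEAD motif CATTCC or the AP-1 motif TGANTCA, where AP-1 is the FOS and JUN transcription factor, each searched on both strands. For each gene the windows that hold a TEAD motif are printed, and where none did, the single window of that gene.
FGF1, chr5:142644240-142644489, minus strand: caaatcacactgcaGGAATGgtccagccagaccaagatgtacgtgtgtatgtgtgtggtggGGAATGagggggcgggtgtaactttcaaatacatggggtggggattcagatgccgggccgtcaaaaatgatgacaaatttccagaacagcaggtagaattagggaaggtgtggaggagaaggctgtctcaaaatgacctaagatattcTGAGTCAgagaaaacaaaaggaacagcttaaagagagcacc
FGF2, chr4:122826581-122826830, plus strand: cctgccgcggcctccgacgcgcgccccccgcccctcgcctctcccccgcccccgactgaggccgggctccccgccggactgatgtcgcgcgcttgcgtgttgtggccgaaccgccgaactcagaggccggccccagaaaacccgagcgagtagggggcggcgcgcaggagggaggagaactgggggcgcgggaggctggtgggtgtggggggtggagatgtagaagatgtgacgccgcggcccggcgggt
PDGFRB, chr5:150155846-150156095, minus strand: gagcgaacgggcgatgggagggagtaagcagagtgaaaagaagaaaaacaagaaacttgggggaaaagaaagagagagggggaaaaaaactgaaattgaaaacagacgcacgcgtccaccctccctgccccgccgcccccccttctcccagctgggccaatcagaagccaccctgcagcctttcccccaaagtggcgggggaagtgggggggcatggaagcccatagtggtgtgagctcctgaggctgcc
FGFBP1, chr4:15938741-15938990, minus strand: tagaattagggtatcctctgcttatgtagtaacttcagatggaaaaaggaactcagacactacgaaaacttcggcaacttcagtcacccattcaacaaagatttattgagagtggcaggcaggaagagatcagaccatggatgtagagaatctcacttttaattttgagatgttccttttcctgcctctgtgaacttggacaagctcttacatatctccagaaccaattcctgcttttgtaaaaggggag
FGFR2, chr10:121596646-121596895, minus strand: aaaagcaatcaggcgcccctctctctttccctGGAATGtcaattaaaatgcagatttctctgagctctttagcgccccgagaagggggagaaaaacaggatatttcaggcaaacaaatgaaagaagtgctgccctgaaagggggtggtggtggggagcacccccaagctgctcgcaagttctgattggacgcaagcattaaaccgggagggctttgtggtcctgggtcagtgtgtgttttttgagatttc
FGFR2, chr10:121531315-121531564, minus strand: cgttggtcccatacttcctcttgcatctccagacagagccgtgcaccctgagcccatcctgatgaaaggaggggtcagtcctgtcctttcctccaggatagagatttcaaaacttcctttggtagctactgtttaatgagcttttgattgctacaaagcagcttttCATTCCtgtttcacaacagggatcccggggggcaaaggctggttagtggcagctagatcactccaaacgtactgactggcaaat
Of 19 windows of these 8 genes, 3 held the TEAD motif, 1 of 4 for FGF1 and 2 of 5 for FGFR2. The FGF1 window held 2 of them, the first 236 bases before the start, and an AP-1 motif 41 bases before it. No such motif stood in the windows of FGF2, PDGFRB, FGFBP1, FGFR3, FGFR4 or PDGFA. The TEAD motif was in 11.9% of 34943 windows of this length over all genes and the AP-1 motif in 6.59%. The kB motif of NF-kB, the factor that both cytokines activate, was in 5.20% of all windows and in 1 of the 19, which belongs to FGFR4. None of the marked motifs overlapped another. A match is a description of letters and not of a bound site, and no match says only that these letters are not in this window. The called genes included some with and some without a TEAD motif. FGF1 and FGFR2 had 4 and 5 windows, while FGF2, PDGFRB and FGFBP1 had 1 each. The part of TEAD in the line differences was not tested.

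FGF1, a ligand that can bind every FGF receptor, had the largest line difference of the set. Its brightest probe read 833, 889 and 748 in the line labelled YAP(5SA) under IL-1b, TNFa and vehicle, against 156, 103 and 144 in the GFP line. The lines did not overlap, and the ratio of intensities was 5.34, 8.61 and 5.20 in these pairs. All readings in the GFP line were below the filter's level and all in the line labelled YAP(5SA) above it. The probe thus passed the filter only through the line in which it was high. The adjusted p was 3.6e-12 (limma), and 7.8e-06 with no filter on dim probes. A second FGF1 probe read 529.6, 474 and 426 in the line labelled YAP(5SA), against 252, 164 and 167 in the GFP line, again with no overlap. With every one of the 25893 named probes fitted on its own row, that second probe gave 1.25 ± 0.20 (limma adjusted p = 0.0021) against 2.49 for the first, so the size depended on the probe.

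The other FGF1 probes were dim and did not pass the test. The third read 85.6, 134 and 158 in the line labelled YAP(5SA) under IL-1b, TNFa and vehicle, against 102, 73.5 and 119 in the GFP line, a log2 difference of 0.30 ± 0.23. The fourth read 7.99, 21.3 and 23.6 against 7.56, 10.6 and 20.3 in the GFP line. On both of them the lines overlapped. FGF1 has several annotated starts, and which transcripts each probe reads is not known here. Among all 2833 genes with more than 1 probe above the filter, 401 had at least 1 probe called between the lines, 177 had every probe called, and 0 had calls in both directions (limma, all named probes).

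**Figure D2:**
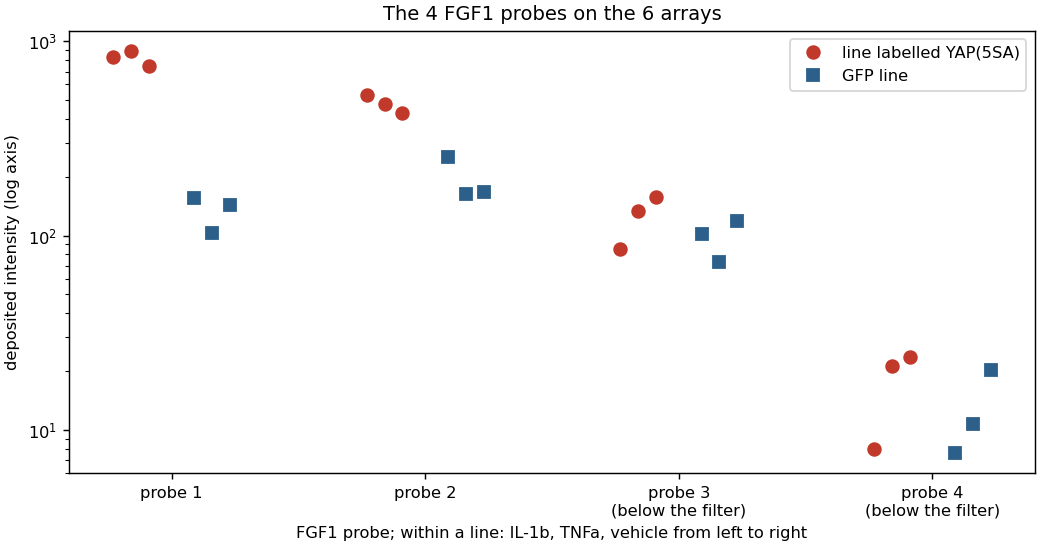
The 4 FGF1 probes, with deposited intensity on a log axis. Circles are the arrays of the line labelled YAP(5SA) and squares those of the GFP line, each ordered IL-1b, TNFa, vehicle from left to right. The lines separate on probes 1 and 2 and overlap on probes 3 and 4, which lie below the filter.

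FGF2, the basic fibroblast growth factor, was also higher in the line labelled YAP(5SA). Its brighter probe read 6832, 8240.1 and 7301 there under IL-1b, TNFa and vehicle, against 3085, 2624 and 3289 in the GFP line. Every array of the first line lay above every array of the second, with ratios of 2.21, 3.14 and 2.22 and a limma adjusted p of 5.4e-06. The second probe read 651, 713 and 408, against 380.1, 308 and 329 in the GFP line. The lines did not overlap on it either, but the vehicle pair differed by only 0.30 on the log2 scale. Its mean of 0.74 ± 0.22 did not pass the test with all named probes (limma adjusted p = 0.068).

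FGFBP1, the carrier of FGFs, fell in the line labelled YAP(5SA). Its single probe read 331, 373 and 368 there under IL-1b, TNFa and vehicle, against 925, 719 and 983 in the GFP line. The groups did not overlap, and the limma adjusted p was 1.3e-05. The difference was -1.44, -0.92 and -1.38 in the 3 pairs, smallest under TNFa. The carrier was thus lower in the line in which the ligands FGF1 and FGF2 were higher.

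Among the FGF receptors, FGFR2 was lower in the line labelled YAP(5SA). Its brighter probe read 486, 499 and 339.8 there under IL-1b, TNFa and vehicle, against 834, 569.6 and 803 in the GFP line. All arrays of the first line lay below those of the second (limma adjusted p = 0.016), but the difference was -0.76, -0.18 and -1.20 in these pairs. The difference was -0.47 when the vehicle pair was left out and -0.69 when the IL-1b pair was, and each time the call was lost. It was -0.98 without the TNFa pair. The call was also lost with every named probe in the fit (limma adjusted p = 0.092). The dimmer FGFR2 probe, below the filter, read 52.5, 41.5 and 44.4 against 105, 93.7 and 86.7 in the GFP line. It differed by -0.84 ± 0.20 with all named probes (limma adjusted p = 0.020), at -0.82, -0.93 and -0.77 in the IL-1b, TNFa and vehicle pairs. The small difference in the TNFa pair was thus seen on the brighter probe alone.

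FGFR1 and FGFR3 did not pass the test between the lines, and FGFR4 was not read above the filter. The brighter FGFR1 probe read 59141, 53693 and 43581 in the line labelled YAP(5SA) under IL-1b, TNFa and vehicle, against 50650.2, 24626 and 46009 in the GFP line. The lines overlapped apart from a low reading on the GFP array with TNFa, and the mean difference was 0.42 ± 0.22 (limma adjusted p = 0.22). The second FGFR1 probe read 2173, 3902 and 4878 against 2545, 3747 and 3274 in the GFP line, with a mean difference of 0.13 ± 0.22, and it did not show that low reading. FGFR3 read 1209.8, 1072 and 1104 in the line labelled YAP(5SA), against 1654, 1172 and 2051 in the GFP line. Its difference of -0.49 ± 0.21 (limma adjusted p = 0.12) was made up of -0.45, -0.13 and -0.88 in the IL-1b, TNFa and vehicle pairs. Without the TNFa pair it was -0.66 (limma adjusted p = 0.036). The FGFR4 probe ran from -14.9 to 18.1 over the 6 arrays, at the 0.286th percentile of named probes by mean, and gives no order between the lines.

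PDGFRB, the receptor for PDGF B chains, rose in the line labelled YAP(5SA). Its single probe read 316, 342 and 294 there under IL-1b, TNFa and vehicle, against 145, 131 and 142 in the GFP line. The lines did not overlap, the ratios were 2.19, 2.61 and 2.07, and the limma adjusted p was 7.4e-05. The probe lay just above the filter, at the 40.4th percentile of named probes by mean level. Its readings in the GFP line were below the filter's level and those in the line labelled YAP(5SA) above it. PDGFRB marks fibroblasts and pericytes in tissue. The summed intensity of the 9 fibroblast and pericyte markers ran from 3554 to 4671 in the line labelled YAP(5SA) and from 3497 to 5344 in the GFP line, so the lines overlapped on it. Of these markers 3 lay above the filter. COL1A1 read 892 to 1377 in the line labelled YAP(5SA) and 1312 to 1696 in the GFP line. RGS5 read 2171 to 2803 in the line labelled YAP(5SA) and 1644 to 2929 in the GFP line. PDGFRA read 178 to 336 in the line labelled YAP(5SA) and 152 to 282 in the GFP line. The lines overlapped on each of them. COL1A2, COL3A1, DCN, LUM, THY1 and CSPG4 lay below the filter. Of these, LUM read 34.2 to 43.5 in the line labelled YAP(5SA) and 137 to 161 in the GFP line, without overlap. On the others the lines overlapped. The part of such cells in the PDGFRB difference was not tested.

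The PDGF ligands did not pass the test between the lines. PDGFA read 1629.7, 2024 and 2535 in the line labelled YAP(5SA) under IL-1b, TNFa and vehicle, against 1051, 1629.9 and 1515 in the GFP line. It was higher in each of the 3 pairs, although the lines overlapped, and its mean of 0.56 ± 0.21 had a limma adjusted p of 0.058. That p was 0.028 with quantile normalization and 0.028 with arrays centred on their median. PDGFB read 652, 456 and 341 in the line labelled YAP(5SA), against 427, 327 and 357.95 in the GFP line, and was level under vehicle at -0.07. Its mean difference was 0.33 ± 0.21 (limma adjusted p = 0.34).

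Over all 16 probes, 5 had every array of the line labelled YAP(5SA) above every array of the GFP line, and 3 had every array below. Over all named probes these shares were 10.4% and 12.3%. With all named probes in the fit, 4 of the 16 were called higher and 2 lower, where 4.01% and 5.04% of all named probes were called in these directions, 9.05% in either. The TNFa pair gave the largest difference for FGF1, FGF2, PDGFRB and FGFR1 and the smallest drop for FGFBP1, FGFR2 and FGFR3. That holds for the brightest probes. PDGFA had its smallest difference in the TNFa pair (0.31), and PDGFB its largest in the IL-1b pair (0.59). The second FGFR1 probe was highest in the vehicle pair (0.57), and the dimmer FGFR2 probe dropped most in the TNFa pair (-0.93). The median over all genes was highest in the TNFa pair, at 0.17, against -0.07 in the IL-1b pair and -0.10 in the vehicle pair. The part of that offset in these values was not tested.

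**Figure D3:**
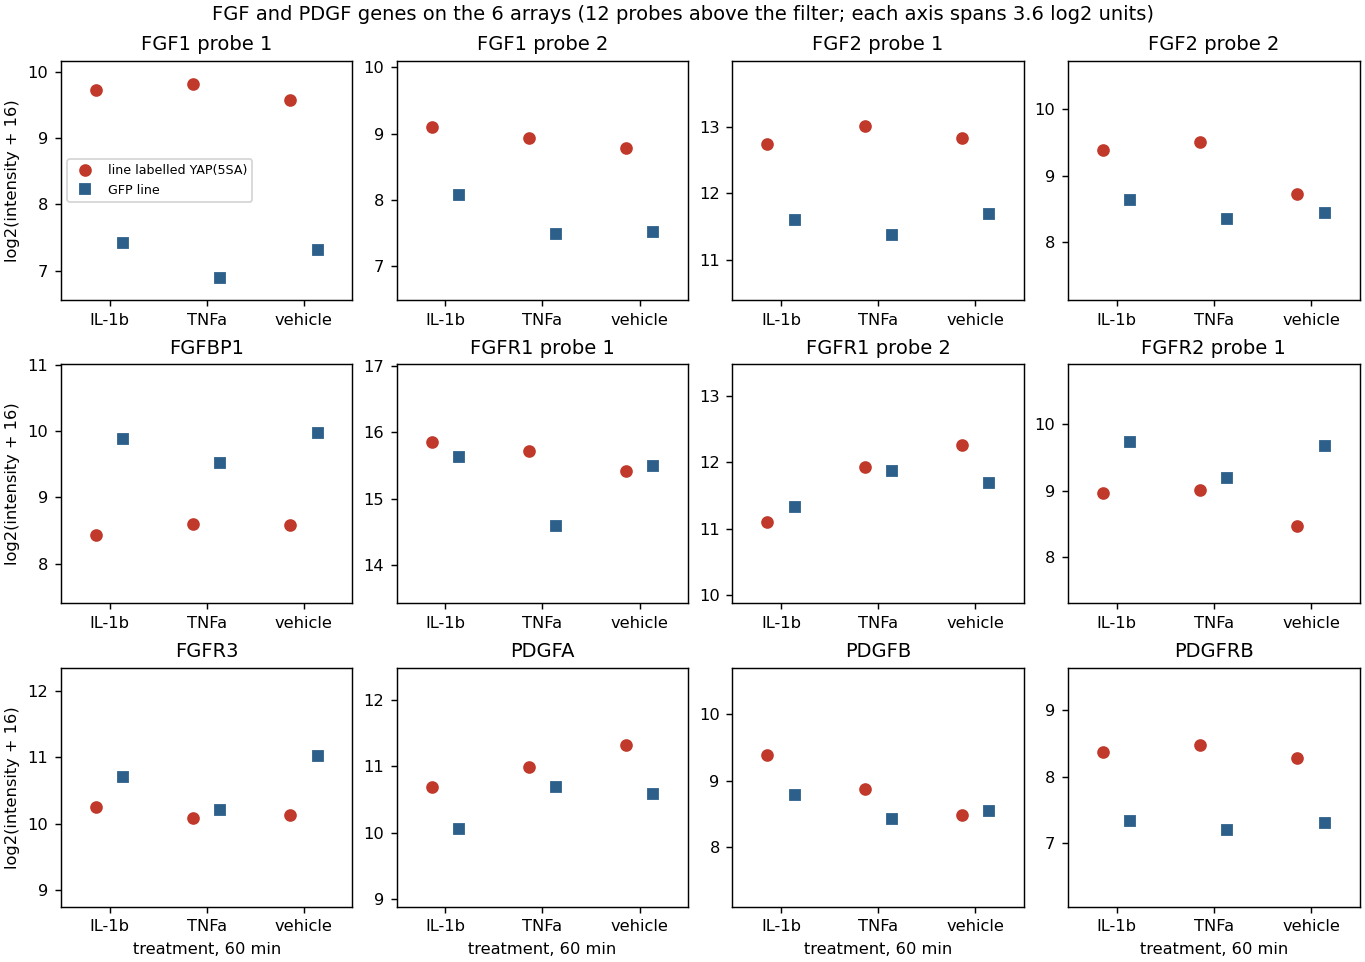
Levels of the 12 probes above the filter, as log2(intensity + 16), under IL-1b, TNFa and vehicle for 60 min, with circles for the line labelled YAP(5SA) and squares for the GFP line. Each panel is 1 probe and each point 1 array, and levels are not comparable between panels. FGF1, FGF2, FGFBP1 and PDGFRB separate the lines under each treatment, while FGFR1 separates them under TNFa on 1 of its probes.

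IL-1b left the set without a call. Of the 9 genes tested, 0 passed the test in either direction, where 2.36% of all genes did, 1.32% higher and 1.04% lower (limma, Benjamini-Hochberg), and 2 had an unadjusted limma p under 0.05. These were the PDGF chains, and they went in opposite directions. PDGFB read 652 with IL-1b against 341 with vehicle in the line labelled YAP(5SA), and 427 against 357.95 in the GFP line, a mean of 0.58 ± 0.26 (limma SE, 2 pairs, adjusted p = 0.27). PDGFA read 1629.7 with IL-1b against 2535 with vehicle in the line labelled YAP(5SA), and 1051 against 1515 in the GFP line, a mean of -0.58 ± 0.25 (adjusted p = 0.26). Both PDGF genes kept their direction in each line. The mean responses of FGF1, FGF2, FGFBP1 and PDGFRB lay between -0.12 and 0.13, and those of FGFR1, FGFR2 and FGFR3 were 0.29, 0.28 and -0.09. All of these are values of the brightest probes. The second FGFR1 probe, also above the filter, went the other way at -0.76 ± 0.27 (limma adjusted p = 0.33 with all named probes). It gave -1.16 in the line labelled YAP(5SA) and -0.36 in the GFP line. The second probes of FGF1 and FGF2 each gave 0.43.

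FGF1 gave 833 with IL-1b and 748 with vehicle in the line labelled YAP(5SA), and 156 against 144 in the GFP line. The line difference with IL-1b and with vehicle was 2.30 and 2.26 for FGF1, 1.14 and 1.15 for FGF2, -1.44 and -1.38 for FGFBP1, and 1.05 and 0.97 for PDGFRB. The response to IL-1b differed between the lines by at least 1 on the log2 scale for 0 of the 9 genes and for 2.13% of all genes. With 1 array per condition that difference has no test.

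TNFa also left the set without a call. Of the 9 genes, 0 passed the test and 0 had an unadjusted limma p under 0.05, where 0.769% of all genes were called, 0.688% higher and 0.081% lower (limma). The mean responses ran from -0.42 for FGFR3 to 0.14 for PDGFB. Within the lines the readings parted: 8 of the 9 genes had responses of opposite sign, 7 of them above 0 in the line labelled YAP(5SA) and below 0 in the GFP line. PDGFA went the other way, at -0.32 and 0.10, and FGFR3 was below 0 in both. Over all genes 62.7% had opposite signs, and 45.3% were above 0 in the line labelled YAP(5SA) and below 0 in the GFP line. The median response was 0.09 in the line labelled YAP(5SA) and -0.19 in the GFP line, so the whole arrays were offset in the same directions. With each array centred on its median, 5 of the 9 genes had opposite signs, against 59.7% of all genes. With quantile normalization 6 did, against 59.0% of all genes. The response differed between the lines by at least 1 for 2 of the 9 genes, FGFR1 and FGFR2, and for 9.26% of all genes. Both cytokine responses share the vehicle arrays.

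**Figure D4:**
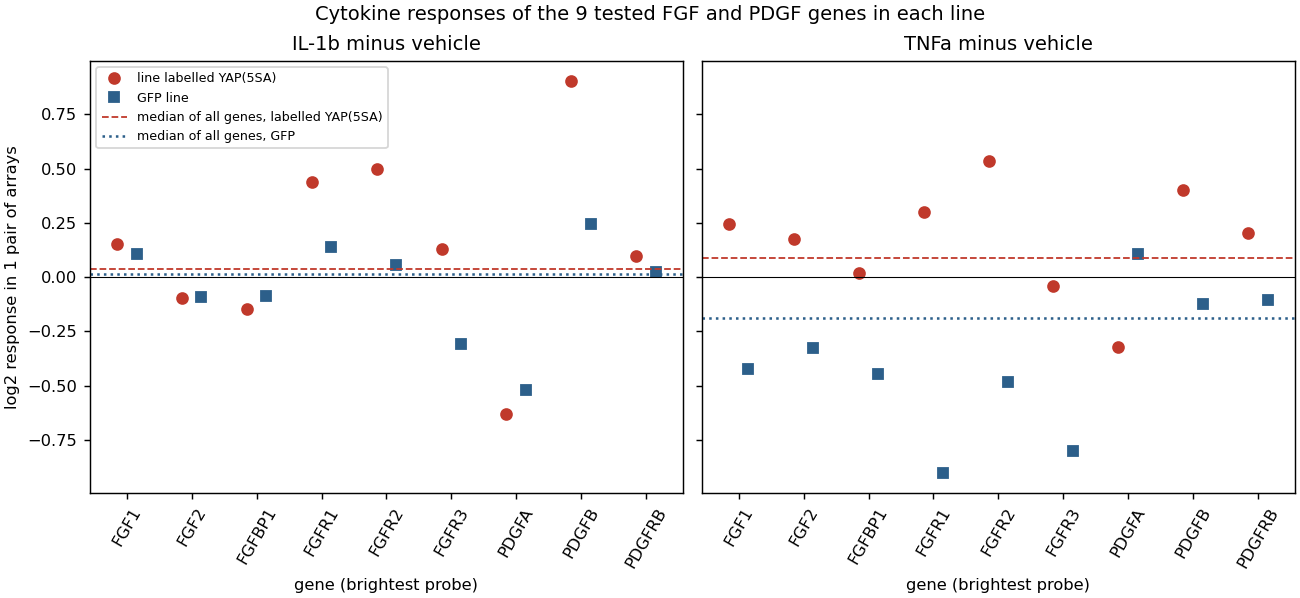
Responses of the 9 tested genes to IL-1b and to TNFa, as log2 differences from vehicle in 1 pair of arrays, with circles for the line labelled YAP(5SA) and squares for the GFP line. Dashed and dotted lines are the medians of all genes in each line. Under TNFa most circles lie above 0 and most squares below it, on the same sides as the medians of 0.09 and -0.19.

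Other genes of these pathways were taken from lists chosen by function. Of 4 other PDGF genes, all tested, 1 rose and 2 fell. PDGFC, a ligand of PDGF receptors, rose by 1.70 ± 0.21, while the ligand PDGFD changed by -3.26 ± 0.21 and the receptor-like PDGFRL by -1.40 ± 0.22 (limma SE, 3 pairs). PDGFD stood at log2 levels of 7.51, 7.76 and 7.93 in the line labelled YAP(5SA) under IL-1b, TNFa and vehicle, against 10.99, 10.97 and 11.02 in the GFP line. PDGFC stood at 11.77, 11.46 and 11.34 against 10.01, 9.58 and 9.88 in the GFP line. The PDGFD levels in the line labelled YAP(5SA) under IL-1b and TNFa were below the filter's level of 7.79. PDGFD thus passed the filter mainly through the GFP line, in which it was high. Of the PDGF ligands, then, PDGFC was called higher and PDGFD lower, and PDGFA and PDGFB did not pass the test. PDGFRA, the other main PDGF receptor, gave 0.25 ± 0.22.

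Of 18 FGF binding proteins, co-receptors and receptor modulators, 11 were tested, 3 rose and 1 fell. Heparan sulfate proteoglycans of the syndecan family made up the rises: SDC2 by 2.77 ± 0.21, SDC1 by 0.77 ± 0.20 and SDC4 by 0.73 ± 0.24. SDC2 stood at log2 levels of 10.47, 11.13 and 11.05 in the line labelled YAP(5SA) under IL-1b, TNFa and vehicle, against 8.07, 8.05 and 8.22 in the GFP line. FLRT3, a transmembrane protein that binds FGF receptors, fell by 4.59, with log2 levels of 7.17, 7.17 and 7.49 against 11.86, 11.55 and 12.18 in the GFP line. Its levels in the line labelled YAP(5SA) were below the filter's level. The call of SDC4 was lost without the vehicle pair, where its difference was 0.23, and that of SDC1 was lost without the IL-1b pair (0.76). The syndecan SDC3 gave -0.33 ± 0.21 and did not pass the test.

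Of 16 other secreted FGFs 4 were tested and 0 were called between the lines. FGF18, the largest of them at 0.50 ± 0.22, rose with IL-1b by 1.23 ± 0.27 (limma SE, 2 pairs, adjusted p = 0.0066), by 0.68 in the line labelled YAP(5SA) and by 1.78 in the GFP line. The call was lost without the GFP vehicle array (0.90) and without the GFP array with IL-1b (0.73). Of 4 intracellular FGF homologous factors 2 were tested and 0 called, with FGF12 at -0.18. Of 16 shared adaptors and kinases 12 were tested and 1 rose, PIK3R1, the regulatory subunit of PI3K, by 0.90 ± 0.21. The PIK3R1 levels in the GFP line were below the filter's level.

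Among 13 feedback and output genes 10 were tested, and 0 rose and 2 fell between the lines. ETV4, a transcription factor induced by FGF signalling, changed by -0.93 ± 0.21, a call lost without the IL-1b pair (-0.81). The immediate early gene EGR1 changed by -0.77 ± 0.27. The EGR1 difference was 0.68 under vehicle and -1.68 and -1.30 under IL-1b and TNFa, and its call was lost without the IL-1b pair (-0.31) and without the TNFa pair (-0.50). With IL-1b, EGR1 rose by 2.10 ± 0.33 and FOS by 1.60 ± 0.26, and with TNFa EGR1 rose by 1.91 ± 0.33. In the line labelled YAP(5SA) EGR1 rose by 0.92 with IL-1b and 0.92 with TNFa, and in the GFP line by 3.28 and 2.91. FOS rose with IL-1b by 1.38 in the line labelled YAP(5SA) and by 1.83 in the GFP line. The EGR1 calls were lost without the GFP vehicle array, at 1.02 for IL-1b and 0.83 for TNFa, and so was its IL-1b call without the GFP array with IL-1b (1.42). The EGR1 line call was also lost with quantile normalization (limma adjusted p = 0.054) and with arrays centred on their median (limma adjusted p = 0.14). The FOS call was lost without the GFP array with IL-1b (1.33). SDC4 also rose with IL-1b, by 1.29 ± 0.29, a call lost without the GFP vehicle array (0.54) and without the GFP array with IL-1b (0.88). The SDC4 rise was 0.51 in the line labelled YAP(5SA) and 2.07 in the GFP line. With no filter on dim probes the IL-1b calls of SDC4, FGF18 and EGR1 were lost (limma adjusted p = 0.21, 0.17 and 0.096), and so were the TNFa call of EGR1 (0.16) and the line calls of SDC4 (0.16) and EGR1 (0.26). Median line differences were -0.58 for the other PDGF genes, 0.17 for the FGF modulators, 0.16 for the adaptors and -0.23 for the output genes, against -0.01 over all genes.

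**Figure D5:**
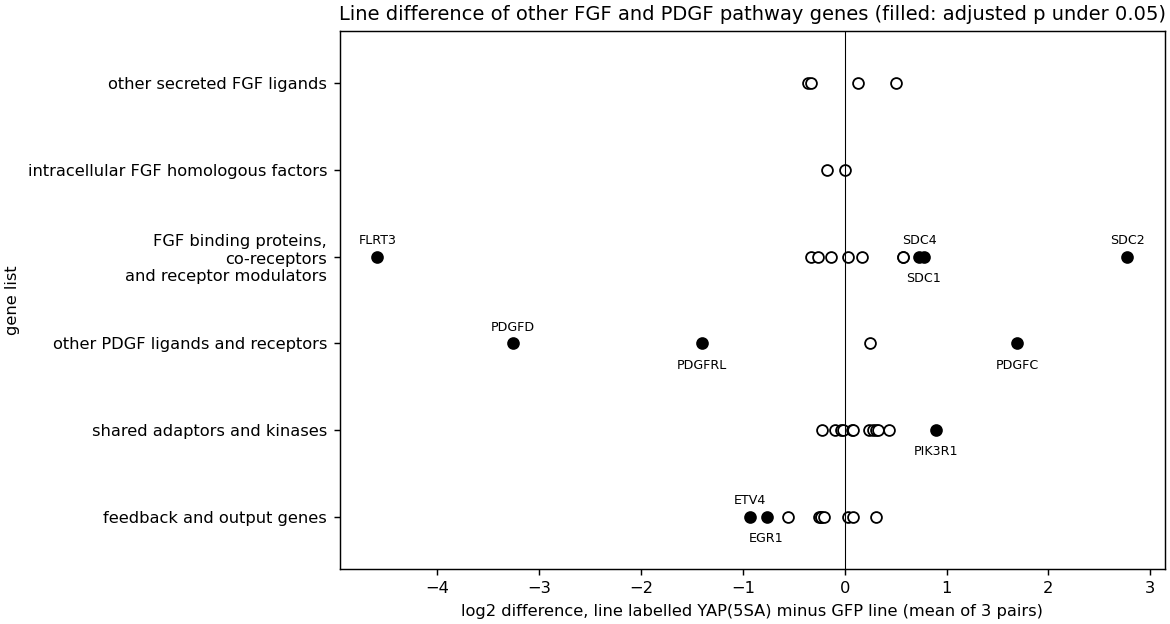
Line difference of other FGF and PDGF pathway genes, by list, as the log2 difference, line labelled YAP(5SA) minus GFP line, mean of 3 pairs. Each circle is a tested gene, filled and named where the adjusted p was under 0.05. FLRT3 at -4.59, PDGFD at -3.26 and SDC2 at 2.77 lie farthest from 0.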

How the data were processed

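Total RNA was amplified to amino-allyl antisense RNA by an Eberwine-based method and coupled to Cy5, per the labels' protocols. The authors deposited 1 table of linear probe intensity values, with background subtracted, since some lie below 0. Scanner, background method, scaling and spot averaging stay unstated in the labels and headers, and there are no detection flags. Median intensities ran from 335.2 to 398.1, and between 10 and 1146 probes per array lay below 0.

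Platform annotation gave 1 gene for 25893 of 28264 probes, and all 25893 matched RefSeq gene identifiers, used for current symbols. Negative values became 0, and log2 was taken after adding a pseudocount of 16. The dimmest 40% of named probes by mean were removed and each gene was read by its brightest remaining probe (12350 genes). Using limma 3.58.1 in R 4.3.3, lmFit and eBayes were run with line and treatment as additive terms, with Benjamini-Hochberg adjustment at 0.05. The residual degrees of freedom were 2 and those of the prior 34.3. Array number limits the precision. The fit was tested on simulated data. Alternatives were other scaling, filters, pseudocounts, probe rules, variance priors, no covariate and leaving out each array. Named are the 10 members, called genes of each list or otherwise its largest line difference, the 2 genes nearest each called member, and YAP1. PDGFRA, SDC3, KRT7 and the uncalled markers were named after their values were seen. Members and lists were chosen with earlier results of these data known.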

Additional observations from a re-analysis of the deposited data

Results flagged for a closer look

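The TNFa response of the brighter FGFR1 probe was 0.30 in the line labelled YAP(5SA) and -0.90 in the GFP line, a difference of 1.20 on the log2 scale. That of the brighter FGFR2 probe was 0.53 and -0.48, a difference of 1.02. Each was picked out because the responses had opposite signs and lay at least 1 apart, a size reached by 9.26% of all genes, and with 1 array per condition the difference was not tested. With arrays centred on their median the differences were 1.01 and 0.83, and with quantile normalization 1.02 and 0.71. The second FGFR1 probe gave -0.32 in the line labelled YAP(5SA) and 0.19 in the GFP line, and the dimmer FGFR2 probe gave -0.07 and 0.10, so neither showed the pattern of its partner.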

How the results depend on the processing

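The model already pairs the lines by treatment. No further pairing was possible, because no group has a second replicate. FGF1, FGF2, FGFBP1 and PDGFRB kept their direction and call between the lines under every alternative in which they were tested, the 6 fits without an array included. With the dimmest 60% left out only 4 of the genes were tested and 1 was called, FGF2. The number of members called between the lines ran from 4 to 7 when an array was left out, and stayed at 0 for each cytokine. FGFR2 lost its call without the filter (adjusted p = 0.078) and without the covariate (adjusted p = 0.070), and PDGFA passed with quantile normalization, median centring and a trended prior (adjusted p = 0.037). Calls over all genes for IL-1b were 292, against 170 with median centring, 58 with no filter and 80 with the mean of a gene's probes above the filter. They were 455 with a trended prior and 4 without the covariate, and ran from 58 to 692 without an array. For TNFa they were 95, against 36, 45 and 3 with no filter, that mean of probes and no covariate, and 50 without the GFP vehicle array. For the line they were 2077, against 1383 with the dimmest 60% left out and 1023 without the IL-1b pair. The causes were not tested.

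Uncalled cytokine responses near 0 changed sign in some settings. For IL-1b, PDGFRB gave -0.019 with quantile normalization, and FGF2 and FGFR1 gave 0.17 and -0.24 with the mean of a gene's probes above the filter. For TNFa, FGF2 gave 0.14 with that mean. Without an array, IL-1b responses ran from -0.050 to 0.31 for FGF1, -0.22 to 0.033 for FGF2, -0.26 to 0.028 for FGFBP1, -0.087 to 0.67 for FGFR1, -0.090 to 0.64 for FGFR2, -0.39 to 0.21 for FGFR3 and -0.036 to 0.16 for PDGFRB. TNFa responses ran from -0.41 to 0.23 for FGF1, -0.32 to 0.18 for FGF2, -0.46 to 0.033 for FGFBP1, -0.83 to 0.23 for FGFR1, -0.37 to 0.42 for FGFR2, -0.29 to 0.077 for PDGFA, -0.16 to 0.44 for PDGFB and -0.087 to 0.19 for PDGFRB.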

Other observations

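The genes whose profiles over the 6 arrays lay nearest those of the called members were found by the root mean square difference of centred log2 levels, among genes with a range of at least 1. For FGF1 they were IGFBP7 (0.104), a secreted insulin-like growth factor binding protein, and CNRIP1 (0.112). For FGF2 they were the gelatinase MMP9 (0.0689) and the kinase STK26 (0.0871), and for PDGFRB PRTFDC1 (0.0673) and the formin INF2 (0.0702). For FGFBP1 they were SNORC (0.0741) and IGFBP2 (0.0767), another insulin-like growth factor binding protein, and for FGFR2 MLLT11 (0.0411) and TMT1B (0.0478). The 6 arrays share their scaling, and many genes with a like line difference lie close together on so few arrays.

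Among the marker lists, CDH1 was higher in the line labelled YAP(5SA) by 1.65 ± 0.21 and KRT18 by 0.63 ± 0.21, while EPCAM differed by -1.03 ± 0.22 (limma SE, 3 pairs). The KRT18 call was lost without the IL-1b pair (0.60) and without the TNFa pair (0.51), and the EPCAM call without the IL-1b pair (-0.79). That of KRT18 was also lost with quantile normalization, no filter and no covariate (limma adjusted p = 0.051, 0.086 and 0.078). EPCAM levels in the line labelled YAP(5SA) under vehicle and IL-1b, at 7.45 and 7.11, were below the filter's level of 7.79. EPCAM thus passed the filter mainly through the GFP line. Of the 3 fibroblast and pericyte markers tested 0 were called, with COL1A1 at -0.41 ± 0.21. Of the endothelial and leukocyte markers CD14 was called lower, at -1.61 ± 0.21.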
